A study of Bos taurus with 17 samples.

Results

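The genes described here encode 10 surface proteins by which mesenchymal stem cells are commonly recognised: NT5E (CD73), THY1 (CD90), ENG (CD105), CD44, ALCAM (CD166), VCAM1 (CD106), PDGFRA, PDGFRB, CD9 and CD81. They were taken by symbol from the table of normalized expression of bovine umbilical cord mesenchymal stem cells. All 10 of the 10 symbols were found, each on 1 of the table's 12894 genes, and all 10 passed the minimum mean level of 5 normalized reads set for testing. A normalized read is a read count divided by a scaling factor of its library.

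The cells were primary cultures kept in low-glucose medium with serum and led toward muscle in a differentiation medium with less serum, dexamethasone, ascorbic acid phosphate and growth factors (vascular endothelial, insulin-like and fibroblast growth factor). RNA was read by MARS-seq, which counts transcript 3′ ends, in 15 libraries that the labels call biological replicates. On plastic there were 3 libraries from day 0, 1 day after seeding and before differentiation (d0_P), 3 from day 3 (d3_P) and 2 from day 21 of differentiation (d21_P). On day 21 there were also 4 libraries of cells on a scaffold in the same differentiation medium (d21_mS, the media scaffold). The other 3 came from a smart scaffold that carried the growth factors itself, with none of them in the medium (d21_sS). Later plastic groups differ from day 0 in both time and medium. Scaffold cells of day 0 were not analysed here, so against day 0 each scaffold group differs in time, medium and support. On day 21 the 2 scaffolds differ in how the factors were given, and the smart scaffold differs from plastic in that and in support. The labels do not say how many animals gave the cells. In such bulk RNA, fewer cells of a type and less RNA per cell cannot be told apart.

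Mesenchymal stem cells are stromal cells that grow attached to plastic and can form bone, cartilage and fat. They carry no single defining antigen and are recognised by a panel in which CD73, CD90 and CD105 are present while blood and endothelial antigens are absent. Most proteins of the panel have roles of their own: CD73 makes adenosine, CD44 binds hyaluronan, CD105 is a co-receptor of the TGF-beta family, and the tetraspanins CD9 and CD81 organise other proteins in the membrane.

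Libraries held between 2197356 and 15483745 reads. The plastic group of day 21 was both the smallest and the shallowest, with 2 libraries of 2197356 and 5264578 reads, against 8952711 to 15483745 on day 0. Replicates of a group correlated at 0.961 to 0.991 over genes, and all pairs differed by more than counting noise. Levels of the markers are compared between groups for 1 gene at a time, never between markers. For lists of cell type genes, sums of levels are also compared between groups, and the genes with most reads weigh most in them. Rose, fell and changed stand for an adjusted p under 0.05 (limma, Benjamini-Hochberg over 10960 genes) with a log2 change of at least 1.

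**Figure D1:**
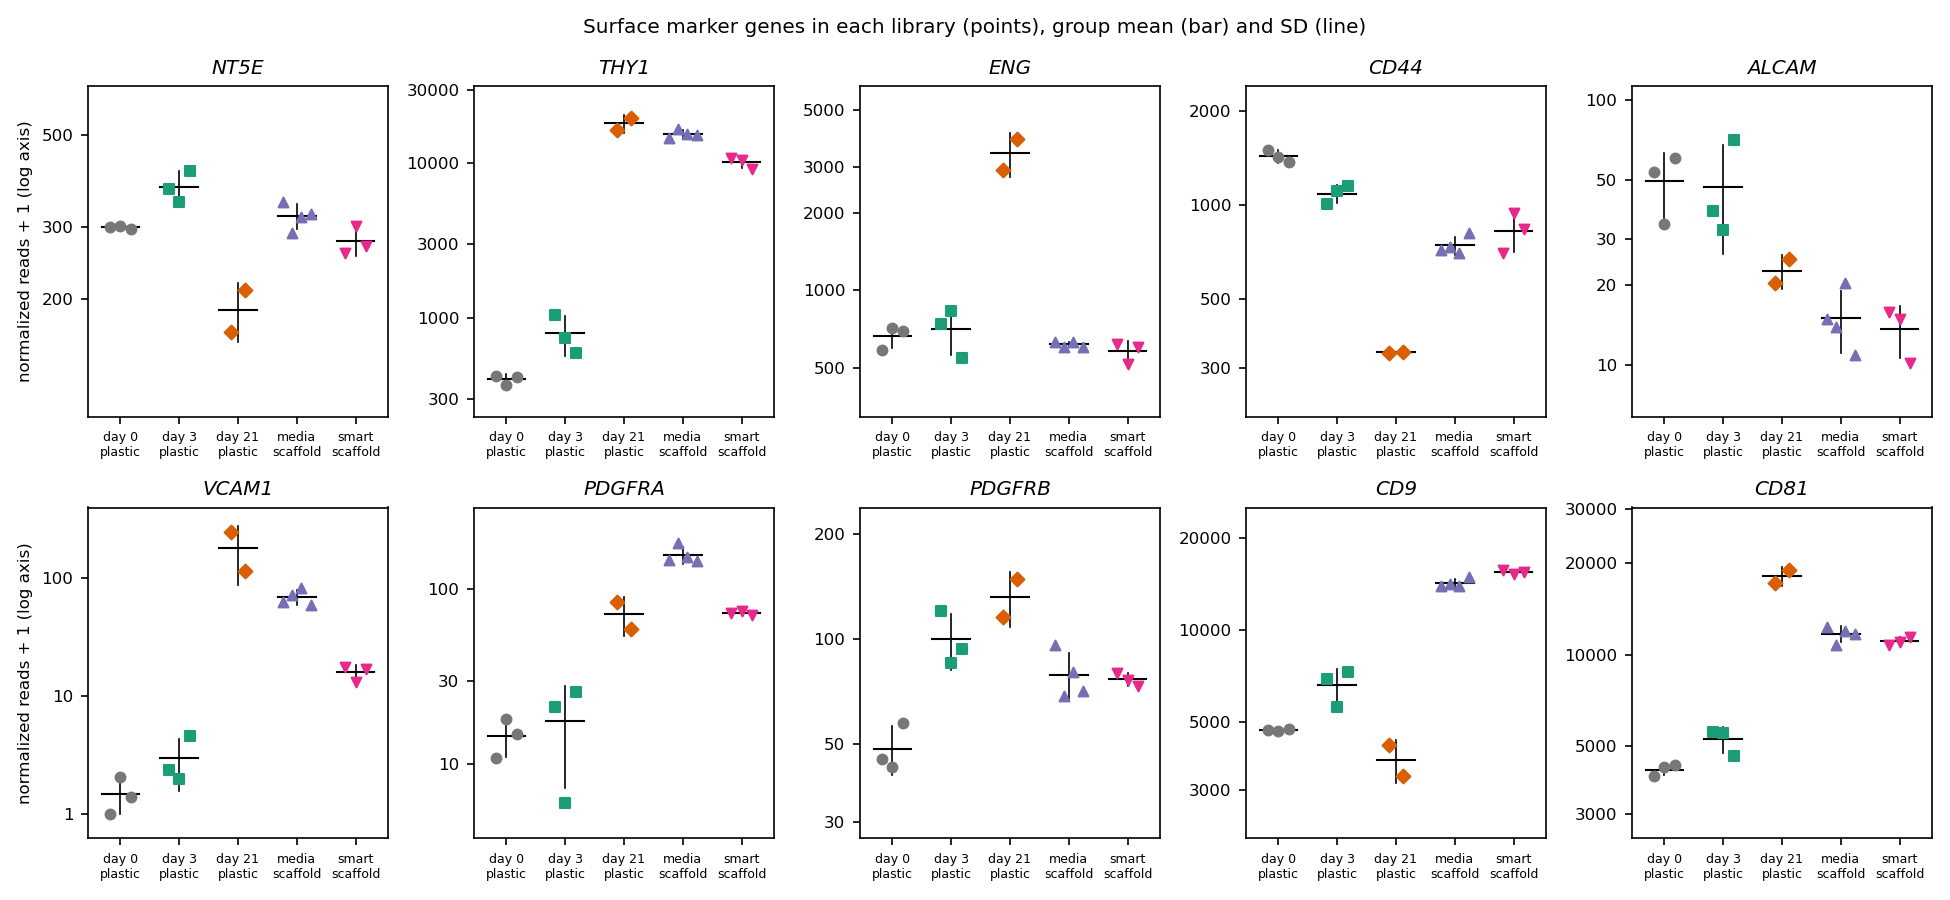
Normalized reads (log axis, with 1 added; each panel has its own scale) of the 10 marker genes in the 15 libraries of the 5 groups. Points are libraries, horizontal bars are group means and vertical lines the SD; THY1 lies between 366 and 421 on day 0 and at 9223 or more in every library of day 21, while NT5E stays between 166 and 409 throughout.

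The panel did not move as a unit. After 3 days on plastic 1 of the 10 genes had changed, PDGFRB, which rose (10.0% of all tested genes passed, 6.27% as rises and 3.73% as falls). By day 21 on plastic, 8 of 10 differed from day 0, against 45.2% of all genes tested (21.2% higher and 24.1% lower): THY1, ENG, VCAM1, PDGFRA, PDGFRB and CD81 rose, and CD44 and ALCAM fell. The median log2 change of the 10 genes was 1.78, and that of all genes tested was -0.06. Against day 3 the same comparison gave 5 genes that rose and 1 that fell, with 34.9% of all genes called (15.5% higher and 19.4% lower). On the media scaffold 5 markers rose against day 0 and 1 fell, with 32.4% of all genes called (17.5% higher and 14.9% lower). On the smart scaffold 5 rose and 1 fell as well, with 30.6% called (16.5% higher and 14.1% lower). In both scaffold groups the genes that rose were THY1, VCAM1, PDGFRA, CD9 and CD81, and ALCAM fell. The comparisons with day 0 share its 3 libraries.

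At day 21 the scaffold groups also differed from plastic. On the media scaffold CD44, PDGFRA and CD9 rose against plastic and ENG and VCAM1 fell, 5 of 10 beside 35.4% of all genes (20.8% higher and 14.6% lower). On the smart scaffold CD44 and CD9 rose and ENG and VCAM1 fell, 4 of 10 beside 37.5% (21.4% higher and 16.0% lower). Between the scaffolds VCAM1 alone was called, 1 of 10 beside 0.903% of all genes (0.0730% higher and 0.830% lower). The plastic group of day 21 enters both scaffold comparisons. That the libraries of a pair of groups do not overlap, as is stated for single genes below, was common among all genes tested. It held for 44.3%, 79.7%, 72.4% and 72.9% of them for day 3, day 21 on plastic, media scaffold and smart scaffold against day 0. It held for 65.4% for day 21 against day 3, for 71.2% and 73.1% for media and smart scaffold against plastic, and for 20.4% for smart against media scaffold.

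Rescaling all libraries to the same total moved the median gene by -0.26 between day 21 and day 0 on plastic, by -0.32 between day 21 and day 3, and by -0.25 and -0.22 on the media and smart scaffolds against day 0. The share of rises among called genes then went from 46.8% to 35.6%, from 44.5% to 27.3%, from 53.9% to 39.7% and from 53.9% to 39.7%, in the same order. No called change of a marker turned its direction under any scaling.

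**Figure D2:**
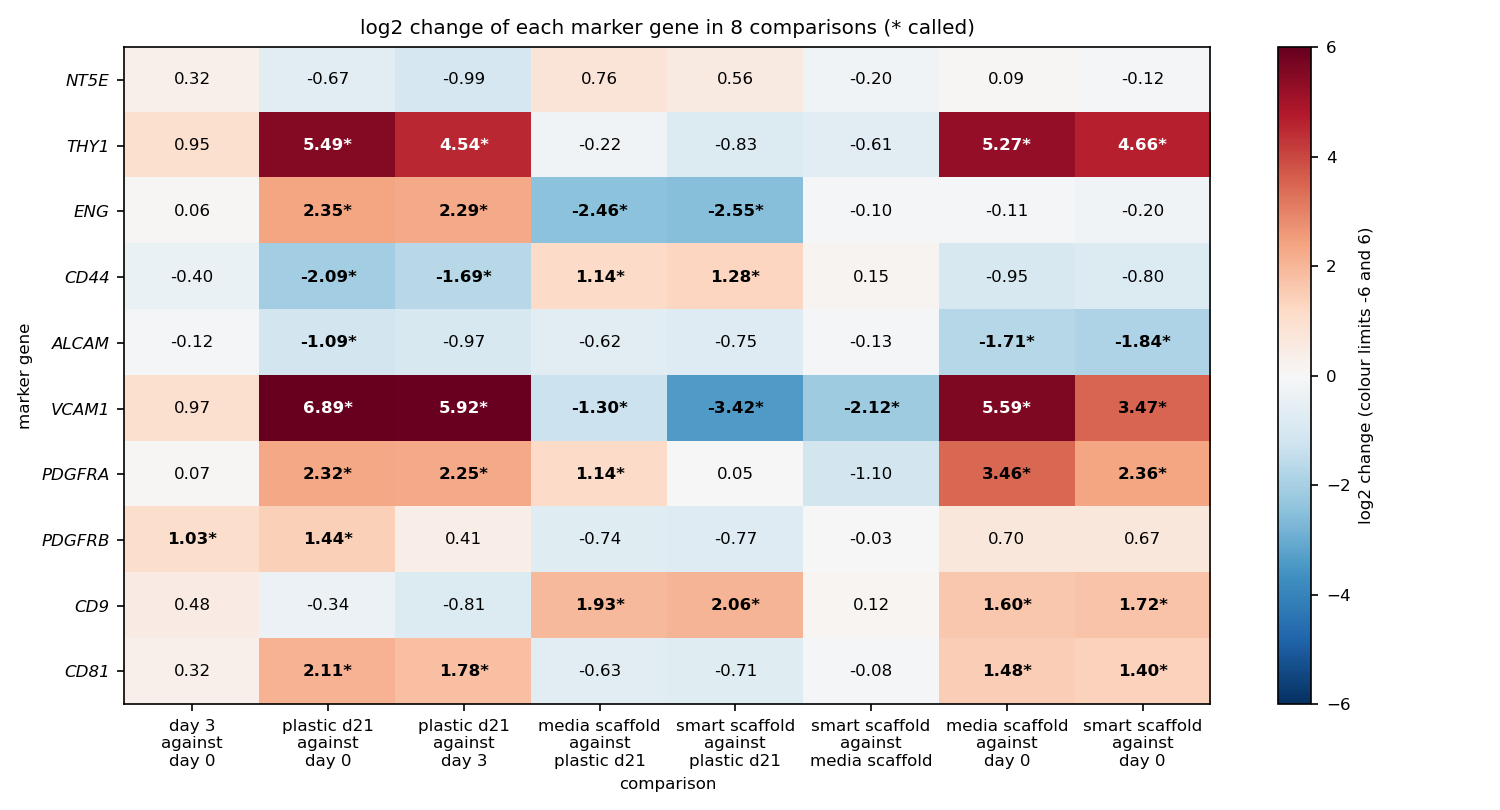
Log2 change of each marker gene (rows) in the 8 comparisons (columns), from the limma model of log2(normalized reads + 1), as a heat map with the value in each cell and red for higher in the group named first. An asterisk and bold type mark called changes (adjusted p under 0.05 and a log2 change of at least 1); the strongest colours belong to THY1 and VCAM1 at day 21 against day 0, with 5.49 and 6.89 on plastic, and NT5E has no asterisk.

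The 2 markers anchored in the membrane by a lipid, NT5E and THY1, went separate ways. NT5E (ENSBTAG00000048655) encodes the enzyme that turns extracellular AMP into adenosine. It read 299, 301 and 294 normalized reads on day 0, 368, 342 and 409 on day 3, and 166 and 209.6 on day 21 on plastic. It read 342, 289, 316 and 321 on the media scaffold and 258, 300.2 and 269 on the smart scaffold. Both plastic libraries of day 21 lay below all others, and the remaining groups followed each other with day 3 highest, then media scaffold, day 0 and smart scaffold, each overlapping the next. NT5E was not called in any of the 8 comparisons. Its largest difference was between day 21 and day 3 on plastic, with a log2 change of -0.99 (limma, adjusted p = 3.77e-06), just under the size required. It was called under 8 of 27 alternatives, among them rescaling to the same total (-1.32), quantile normalization (-1.00044), edgeR with TMM (-1.06) and DESeq2 (-1.03), and ranged from -1.32 to -0.83 over all 27.

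THY1 (ENSBTAG00000019627), a small adhesion protein that binds integrins, had the widest range of the markers with reads in all libraries. It read 421, 366 and 416 on day 0, 1052, 747 and 594 on day 3, and 16478 and 19765 on day 21 on plastic. The media scaffold read 14529, 16749, 15430.0 and 15191, and the smart scaffold 10753, 10447 and 9223. Every day 21 library was above every earlier one, plastic and media scaffold overlapped, and the smart scaffold lay below both. Group means were 45.2-fold above day 0 on plastic, 38.6-fold on the media scaffold and 25.3-fold on the smart scaffold. The log2 change was 5.49 (SE 0.17, limma, adjusted p = 3.3e-14) on plastic, 5.27 on the media scaffold and 4.66 on the smart scaffold. Day 3 was 1.99-fold above day 0, a log2 change of 0.95 (adjusted p = 0.000115, limma) that was not called. It was called under 5 of 27 alternatives. Among them were rescaling to the same total (1.02), edgeR with RLE factors (1.011) and DESeq2 (1.007). The others were weights that count outlying libraries less (array weights, 1.38) and leaving out the third day 3 library (1.145).

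Beside NT5E, 20 genes of purine nucleotides and adenosine were tested. On plastic 8 rose and 5 fell by day 21 (median log2 change 0.62), beside 21.2% and 24.1% of all genes tested. On each scaffold 7 rose and 4 fell against day 0, beside 17.5% and 14.9% of all genes on the media scaffold and 16.5% and 14.1% on the smart scaffold. The adenosine receptor ADORA2B averaged 199 ± 17.4 normalized reads (SD, n = 3) on day 0, 563 ± 67.8 (n = 2) on plastic at day 21, and 35.4 ± 2.08 (n = 3) on the smart scaffold. It rose on plastic by 1.495 on the log2 scale and fell by 2.46 on the smart scaffold. ENTPD1 (CD39), which makes the AMP that NT5E cleaves, rose from 5.01 ± 1.61 to 59.2 ± 15.8 on plastic, a log2 change of 3.34.

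ENG (ENSBTAG00000008997) was high in a single group. It encodes endoglin, the co-receptor that passes signals of BMP9 and TGF-beta. It read 586, 711 and 692 on day 0, 736, 827 and 543 on day 3, and 2935 and 3879.5 on plastic at day 21. On the media scaffold it read 625.4, 602, 626 and 602, and on the smart scaffold 616, 514 and 599. Both plastic libraries of day 21 exceeded the other 13 libraries, and the other 4 groups overlapped as neighbours. The mean on plastic was 5.14-fold that of day 0 (log2 change 2.35, SE 0.16, limma, adjusted p = 7.01e-10), 5.55-fold that of the media scaffold and 5.91-fold that of the smart scaffold. Against day 0 the media scaffold differed by -0.11 (adjusted p = 0.497, limma) and the smart scaffold by -0.20 (adjusted p = 0.229, limma). ENG thus fell on each scaffold against plastic, by 2.46 and 2.55 on the log2 scale.

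Of 25 genes of the TGF-beta receptor complex and its targets, 5 rose and 12 fell on plastic from day 0 to day 21 (median log2 change -0.78, all genes -0.06), beside 21.2% and 24.1% of all genes tested. Against plastic, 8 rose and 3 fell on the media scaffold (median 0.79), beside 20.8% and 14.6% of all genes. ACVRL1 (ALK1), the receptor that ENG assists, rose with it on plastic, from 2.96 ± 1.59 (n = 3) to 132 ± 3.03 (n = 2), a log2 change of 5.14. It was lower on both scaffolds than on plastic, at 42.4 ± 3.17 (n = 4) and 21.6 ± 10.1 (n = 3). Unlike ENG, ACVRL1 rose against day 0 on the media and smart scaffolds too, by 3.52 and 2.50 on the log2 scale. The ligand gene TGFB2 was higher on the scaffolds, with 465 ± 61.2 on the media scaffold against 76.4 ± 8.55 on plastic (log2 change 2.59).

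CD44 (ENSBTAG00000011578), the hyaluronan receptor, had its lowest level on plastic at day 21. It read 1497, 1424 and 1364 on day 0, 1000.3, 1105 and 1144 on day 3, and 334 and 337 on plastic at day 21. The media scaffold read 717, 728, 701 and 812, and the smart scaffold 699.9, 939 and 835. The order was day 0, day 3, the overlapping scaffold groups, and plastic at day 21 below all other libraries. The day 0 mean was 4.26-fold that of plastic at day 21 (log2 change -2.09, SE 0.12, limma, adjusted p = 8.44e-11). CD44 was 2.21-fold and 2.46-fold higher on the media and smart scaffolds than on plastic, with log2 changes of 1.14 and 1.28. Against day 0 it was lower on both scaffolds by less than the size required, with log2 changes of -0.95 and -0.80, and after rescaling to the same total these were -1.20 and -1.03 and were called.

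Among 18 hyaluronan and CD44 companions 4 rose and 5 fell on plastic by day 21, near the share of all genes tested, of which 21.2% rose and 24.1% fell. EZR (ezrin), which ties CD44 to the actin skeleton, went the same way as CD44. It averaged 1988 ± 46.9 on day 0, 250.3 ± 20.2 on plastic, 683 ± 53.0 on the media scaffold and 820 ± 77.3 on the smart scaffold at day 21. Its log2 change was -2.99 on plastic against day 0 and 1.44 on the media scaffold against plastic. SPP1 (osteopontin), a CD44 ligand, averaged 6794 ± 480 on day 0 and rose on day 3 by 1.35 on the log2 scale before falling to 826 ± 276 on plastic. HYAL1, which degrades hyaluronan, rose on plastic from 54.3 ± 6.85 to 414 ± 21.7, a log2 change of 2.91.

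The adhesion molecules VCAM1 and ALCAM moved in opposite directions. VCAM1 (ENSBTAG00000007773) binds integrins of leukocytes and is induced by inflammatory signals. It was at the edge of detection before day 21, with 0, 1.07 and 0.395 normalized reads on day 0 (3 reads in all) and 1.35, 1.01 and 3.57 on day 3 (5 reads). It read 247 and 113 on plastic at day 21, 62.4, 70.6, 81.0 and 58.2 on the media scaffold, and 16.5, 12.1 and 16.1 on the smart scaffold. No 2 of the day 21 groups overlapped, with plastic highest and the smart scaffold lowest. VCAM1 passed the minimum mean through the groups of day 21. Its level on plastic was 406 times that of day 0, with a 95% exact counting interval of 137 to 1983. The ratio was 133 (45.1 to 649) on the media scaffold and 28.1 (8.92 to 142) on the smart scaffold. These intervals cover counting error only.

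VCAM1 fell against plastic on the media scaffold by 1.30 on the log2 scale (limma, adjusted p = 0.00885), and on the smart scaffold by 3.42 (adjusted p = 2.04e-06, limma). Without plastic replicate 1, the higher of its libraries, the media scaffold difference was -0.74 (adjusted p = 0.192, limma). Array weights also ended that call (adjusted p = 0.0748, limma).

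ALCAM (ENSBTAG00000000088), which binds CD6 and itself, had at most 69.6 normalized reads in any library. It read 52.7, 33.1 and 59.2 on day 0, 37.0, 31.2 and 69.6 on day 3, and 19.3 and 24.1 on plastic at day 21. The media scaffold read 14.0, 12.9, 19.4 and 9.87, and the smart scaffold 14.9, 13.9 and 9.20. Days 0 and 3 overlapped and lay above all libraries of day 21. ALCAM fell on the media and smart scaffolds by 1.71 and 1.84 against day 0 (limma, adjusted p = 0.000102 and 0.000108). On plastic it fell by 1.09 (adjusted p = 0.0137, limma), a call that rested on 21 reads at day 21. That call ended with a pseudocount of 4 (-0.997), under array weights (adjusted p = 0.0896, limma), without day 0 replicate 3 (-0.92) and without day 21 replicate 1 (-0.94).

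Of 18 integrin partners of THY1 and VCAM1 and genes of NF-kappaB signalling, 9 rose and 1 fell on plastic by day 21 (median log2 change 0.99), beside 21.2% and 24.1% of all genes tested. IRF1, an interferon response factor that also acts at the VCAM1 promoter, was likewise highest on plastic at day 21, with 83.2 ± 17.4 on day 0, 312 ± 23.3 on plastic, 39.5 ± 7.06 on the media scaffold and 29.5 ± 8.16 on the smart scaffold. It rose on plastic by 1.91 and fell on the media scaffold against plastic by 2.96. Unlike VCAM1 it fell against day 0 on both scaffolds, by 1.05 on the media scaffold, where 5 of 27 alternatives ended the call, and by 1.48 on the smart scaffold. ITGB5, an integrin subunit that binds vitronectin, averaged 336 ± 18.1 on day 0 and rose to 4376 ± 528 on plastic and to 9215 ± 434 on the media scaffold. TNFRSF1B, a TNF receptor, averaged 110 ± 48.4 on plastic and 2.96 ± 2.71 on the smart scaffold.

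Of 14 immunoglobulin-type adhesion genes related to ALCAM, 6 rose and 5 fell on plastic by day 21, beside 21.2% and 24.1% of all genes tested. JAM2, a junction protein, averaged 18.3 ± 11.3 on plastic and rose on the scaffolds, to 293 ± 57.9 and 370 ± 85.1. NECTIN1 was higher on the smart than on the media scaffold, at 111 ± 3.75 against 54.5 ± 8.82 (log2 change 1.03), a call that a pseudocount of 4 or leaving out media scaffold replicate 1 or 2 ended.

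The PDGF receptors, whose ligands drive stromal growth and migration, both rose on plastic by day 21. PDGFRA (ENSBTAG00000007173) read 9.84, 17.1 and 13.8 on day 0, 20.2, 5.03 and 24.99 on day 3, and 84.2 and 58.4 on plastic at day 21. It read 146, 183, 153 and 145 on the media scaffold and 72.6, 74.6 and 70.1 on the smart scaffold. The media scaffold was above all other libraries, plastic and smart scaffold overlapped, and days 0 and 3 overlapped below them. Against day 0 PDGFRA rose 5.25-fold on plastic (log2 change 2.32), 11.6-fold on the media scaffold (3.46) and 5.34-fold on the smart scaffold (2.36). Against plastic it rose on the media scaffold, by a log2 change of 1.14 (limma, adjusted p = 0.0198), which was 0.98 after quantile normalization and 0.88 (adjusted p = 0.17, limma) without plastic replicate 2.

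PDGFRB (ENSBTAG00000002804) was the marker called on day 3; no test compared its change with that of PDGFRA. It read 44.3, 42.1 and 56.4 on day 0, 119, 84.5 and 92.8 on day 3, and 115 and 148 on plastic at day 21. The media scaffold read 95.2, 67.7, 79.4 and 70.1, and the smart scaffold 79.2, 75.5 and 72.4. Day 0 lay below all other libraries and the other groups overlapped as neighbours. The log2 change was 1.03 on day 3 (2.08-fold, limma, adjusted p = 0.000339) and 1.44 on plastic at day 21. The day 3 call ended with a pseudocount of 4 (0.99) and without day 0 replicate 1 (0.99), day 0 replicate 2 (0.95) or day 3 replicate 1 (0.89). On the scaffolds PDGFRB differed from day 0 by 0.70 and 0.67 (limma, adjusted p = 0.0017 and 0.00438), which was not called.

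Of 15 PDGF ligands and signalling genes, 7 rose on plastic by day 21 (median log2 change 0.96), beside 21.2% of all genes tested. On the media scaffold 8 rose and 1 fell against day 0 (1.05), beside 17.5% and 14.9%. The receptor-like gene PDGFRL averaged 43.4 ± 4.46 on day 0, 185 ± 28.8 on plastic, 713 ± 38.0 on the media scaffold and 639 ± 8.83 on the smart scaffold at day 21, with log2 changes of 2.06, 4.01 and 3.85. The ligand gene PDGFA fell on the scaffolds, from 735 ± 28.5 on day 0 to 138 ± 24.7 and 162 ± 30.9, and was at 481 ± 29.8 on plastic. SPARC, a matrix protein that binds PDGF, rose to 126283 ± 3246 on the media scaffold from 14073 ± 487 on day 0 (log2 change 3.17).

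The tetraspanins CD9 and CD81, which share partners in the membrane and are also markers of extracellular vesicles, were both higher on scaffolds than on day 0 but differed on plastic. CD9 (ENSBTAG00000014764) read 4715, 4674 and 4739 on day 0, 6921, 5587 and 7269 on day 3, and 4187 and 3319 on plastic at day 21. It read 13999, 14135, 13936 and 14899.6 on the media scaffold and 15782, 15241 and 15526 on the smart scaffold. No 2 groups overlapped, and both scaffold groups were above all libraries on plastic. CD9 rose on the media scaffold 3.79-fold against plastic (log2 change 1.93, limma, adjusted p = 2.65e-10) and on the smart scaffold 4.13-fold (2.06, adjusted p = 1.99e-10, limma). On plastic the difference between day 21 and day 0 was -0.34 (adjusted p = 0.0144, limma) and not called.

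CD81 (ENSBTAG00000047495) read 3987, 4258 and 4328 on day 0, 5588, 5541 and 4661 on day 3, and 17174 and 19019.6 on plastic at day 21. The media scaffold read 12353, 10729.8, 11936 and 11727, and the smart scaffold 10743, 10974 and 11463.5. Plastic at day 21 was highest, the scaffold groups overlapped below it, and days 3 and 0 followed with no overlap. CD81 rose 4.32-fold against day 0 on plastic (log2 change 2.11, limma, adjusted p = 1.05e-11), 2.79-fold on the media scaffold (1.48) and 2.64-fold on the smart scaffold (1.40). Between scaffold and plastic at day 21 the log2 differences were -0.63 and -0.71 and not called.

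Of 23 other tetraspanins and partners, 9 rose and 7 fell on plastic by day 21, beside 21.2% and 24.1% of all genes tested. Against day 0, 12 rose and 3 fell on the media scaffold (median log2 change 1.22, all genes -0.000408), beside 17.5% and 14.9%. PTGFRN, a known partner of both CD9 and CD81, was high on both scaffolds as CD9 was, with 26.9 ± 4.43 on day 0, 38.9 ± 1.57 on plastic, 301 ± 20.03 on the media scaffold and 360 ± 36.2 on the smart scaffold. TSPAN13 averaged 37.5 ± 2.85 on day 0 and rose to 699 ± 68.9 and 740.02 ± 25.7 on the scaffolds, log2 changes of 4.18 and 4.27. TSPAN15, a partner of the protease ADAM10, was highest on plastic, with 467 ± 24.2 against 82.7 ± 15.0 on the media scaffold and 48.4 ± 1.86 on the smart scaffold.

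Of 39 other surface antigens used for mesenchymal stem cells, 9 rose and 10 fell on plastic by day 21 (median log2 change 0.23), near the share of all genes tested, of which 21.2% rose and 24.1% fell. On the media scaffold 12 rose and 7 fell against day 0 (0.67), beside 17.5% and 14.9% of all genes, and on the smart scaffold 16 rose and 6 fell (0.69), beside 16.5% and 14.1%. ANPEP (CD13), a peptidase of the usual panel, had the order of THY1, from 7.88 ± 0.133 on day 0 to 1277 ± 149 on plastic, 806 ± 31.5 on the media scaffold and 486 ± 59.5 on the smart scaffold. ICAM1 (CD54), an adhesion molecule related to VCAM1, rose from 9.44 ± 1.53 to means of 142, 142 and 138 in the same groups. SUSD2, a marker used to sort such cells, fell from 232 ± 22.9 to 42.3 ± 13.03, 11.7 ± 3.22 and 7.51 ± 3.50. CD47, the signal against phagocytosis, fell on plastic to 207 ± 20.1 and stood at 1204 ± 59.6 and 1442 ± 97.7 on the scaffolds. CAV1, the coat protein of caveolae, was at 2655 ± 1165 on plastic and rose to 16648 ± 866 and 14631 ± 1217 on the scaffolds.

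The comparison of the 2 scaffolds sets growth factors bound to the support against the same factors in the medium. VCAM1 differed, at 4.56-fold higher on the media scaffold (log2 change -2.12 for smart against media, SE 0.35, 95% interval -2.86 to -1.38, limma, adjusted p = 0.00315). PDGFRA was 2.16-fold higher on the media scaffold with no overlap between libraries, a log2 difference of -1.10 (interval -1.85 to -0.35) that missed the threshold in limma (adjusted p = 0.138). It passed when only the 2 groups were fitted (adjusted p = 2.06e-05, limma). The count models called it too (adjusted p = 0.00462 in edgeR with TMM and 1.53e-05 in DESeq2). THY1 was 1.53-fold higher on the media scaffold, a difference of -0.61 (interval -0.91 to -0.31, adjusted p = 0.0305, limma), below the size required. The other 7 genes had intervals that included 0. The narrowest of these 7 reached from -0.26 to 0.10 for CD81, and the widest from -0.78 to 0.51 for ALCAM.

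**Figure D3:**
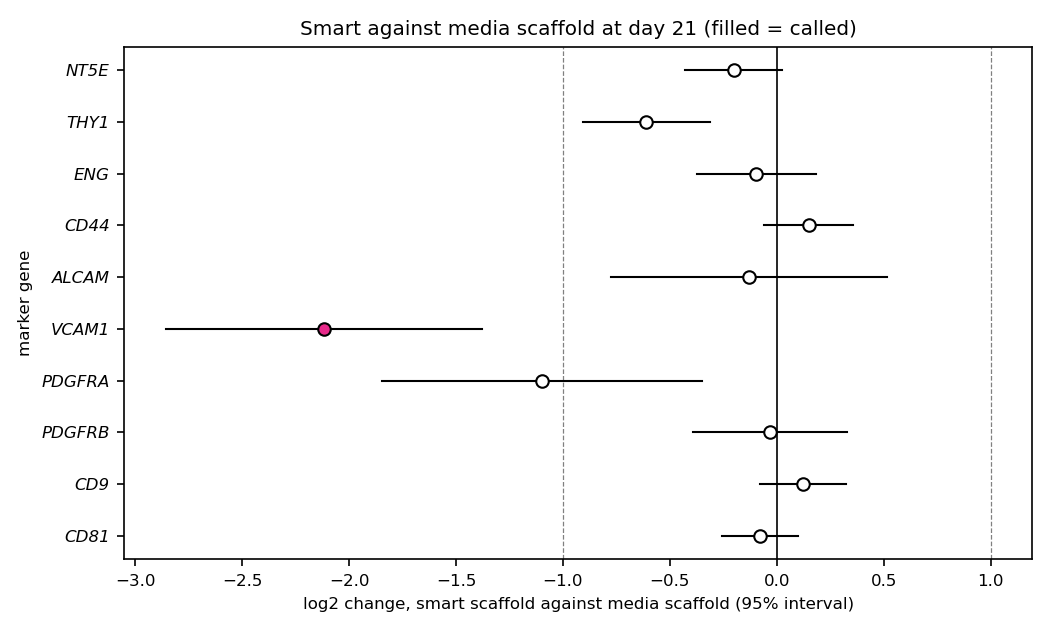
Log2 change of the smart against the media scaffold (negative: lower on the smart scaffold) for the 10 marker genes, from the limma model, with lines for the 95% interval, a filled point for the called gene and dashed lines at a change of 1 in each direction. VCAM1 lies at -2.12, PDGFRA at -1.10 and THY1 at -0.61, and the intervals of the other 7 genes include 0.

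Antigens of blood, endothelial and epithelial cells had few reads but were not absent. The sums for pericyte, smooth muscle and fibroblast genes were carried mostly by ACTA2, COL1A1 and S100A4. MCAM, FAP and PDPN of these lists also had few reads, with at most 6.60, 5.97 and 17.2 normalized reads in any library. Some genes of the lists changed in the same comparisons as markers of the panel. Of 10 blood and immune markers 3 were measured (CD14, LAPTM5 and CD68), and PTPRC was not analysed here. Their summed level was 15.998 to 22.5 normalized reads on day 0, 17.9 to 50.5 on day 3 and 89.7 to 113 on plastic at day 21, against 6.48 to 12.9 and 8.25 to 10.3 on the scaffolds. CD14, an antigen of monocytes, rose on plastic by 5.03 on the log2 scale and fell on the scaffolds against plastic by 3.64 and 3.45. LAPTM5 went the same way, with 3.11 on plastic and -3.91 and -4.14 on the scaffolds against plastic. However, LAPTM5 passed the minimum mean only through plastic at day 21, so its high level there was a condition of its being tested. It had 12 reads on day 0, 22 on plastic at day 21, and 4 and 2 on the media and smart scaffolds. CD68 did not rise on plastic, with means of 16.3 on day 0 and 16.2 on plastic at day 21. Against day 0 CD68 fell on the media and smart scaffolds (-1.94 and -1.86), where CD14 rose (1.39 and 1.58). A pseudocount of 4 ended both of these CD14 calls, and quantile normalization ended the one on the media scaffold. CD14 had 6 reads on day 0, 18 on the media scaffold and 12 on the smart scaffold. The summed level was highest in the group in which ENG and VCAM1 were highest, and its part in those results was not tested.

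Of 7 endothelial and CD34 markers 3 were measured, and PECAM1 and CDH5 were not analysed here. CD34 had 0 reads in all 3 day 0 libraries, which allows up to 0.515 normalized reads for the group, counting 3 reads as the limit. It had 12.4 and 13.7 normalized reads on plastic at day 21 (13 reads in all) and no more than 1.65 in any scaffold library. CD34 was below the minimum mean and was not tested. VWF, a clotting factor of endothelium, rose by 2.14, 2.05 and 2.00 against day 0 on plastic, media and smart scaffold. The summed level was 5.33 to 7.89 on day 0, 19.1 to 33.7 on day 3, 44.2 to 68.7 on plastic at day 21, and 23.8 to 33.8 and 28.1 to 32.1 on the scaffolds. The part of such cells in the changes of ENG and VCAM1, which endothelium also expresses, was not tested. The 2 of 6 epithelial markers measured, CDH1 and KRT19, summed to at most 6.93 in any library, and EPCAM was not analysed here.

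Pericytes and smooth muscle share PDGFRB and THY1 with stromal cells. The 7 of 9 such markers measured summed to 27950 to 32075 on day 0, 16416 to 18959 on day 3, 75460 to 79717 on plastic at day 21, 62182 to 74203 on the media scaffold and 77144 to 88419 on the smart scaffold. Of the 6 tested, 5, 4 and 6 rose against day 0 on plastic, media and smart scaffold, beside 21.2%, 17.5% and 16.5% of all genes tested. Their part in the rise of THY1 was not tested.

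All 6 fibroblast markers were measured (FAP, PDPN, S100A4, DCN, LUM and COL1A1), and stromal cells express them as well. They summed to 69884 to 77349 on day 0, 78637 to 104476 on day 3, 211454 to 278631 on plastic at day 21, 308326 to 325457 on the media scaffold and 289352 to 336620 on the smart scaffold. Of the 4 tested, 2 rose on plastic against day 0, DCN (decorin) by 2.67 and S100A4 by 2.51 on the log2 scale, and all 4 rose on each scaffold. Among all genes tested 21.2%, 17.5% and 16.5% rose on plastic, media and smart scaffold. LUM (lumican) differed by -0.05 on plastic and rose by 4.59 and 4.79 on the media and smart scaffolds. PDPN had 0 reads on days 0 and 3, which allows up to 0.515 and 0.987 normalized reads. The part of fibroblasts in the rise of THY1, PDGFRA, CD9 and CD81 was not tested.

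Over the 15 libraries the panel split into genes that ran together and genes that did not. THY1 and CD81 correlated at a Pearson r of 0.969, VCAM1 and CD81 at 0.944, and THY1 and PDGFRA at 0.906. CD44 ran against CD81, at -0.909. The receptors PDGFRA and PDGFRB correlated at 0.278 and the tetraspanins CD9 and CD81 at 0.339. NT5E, THY1 and ENG, which together form the usual minimal panel, gave -0.473 for NT5E with THY1, -0.776 for NT5E with ENG and 0.292 for THY1 with ENG. These values describe 5 groups of libraries that share day, support and depth, and they are not independent points.

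**Figure D4:**
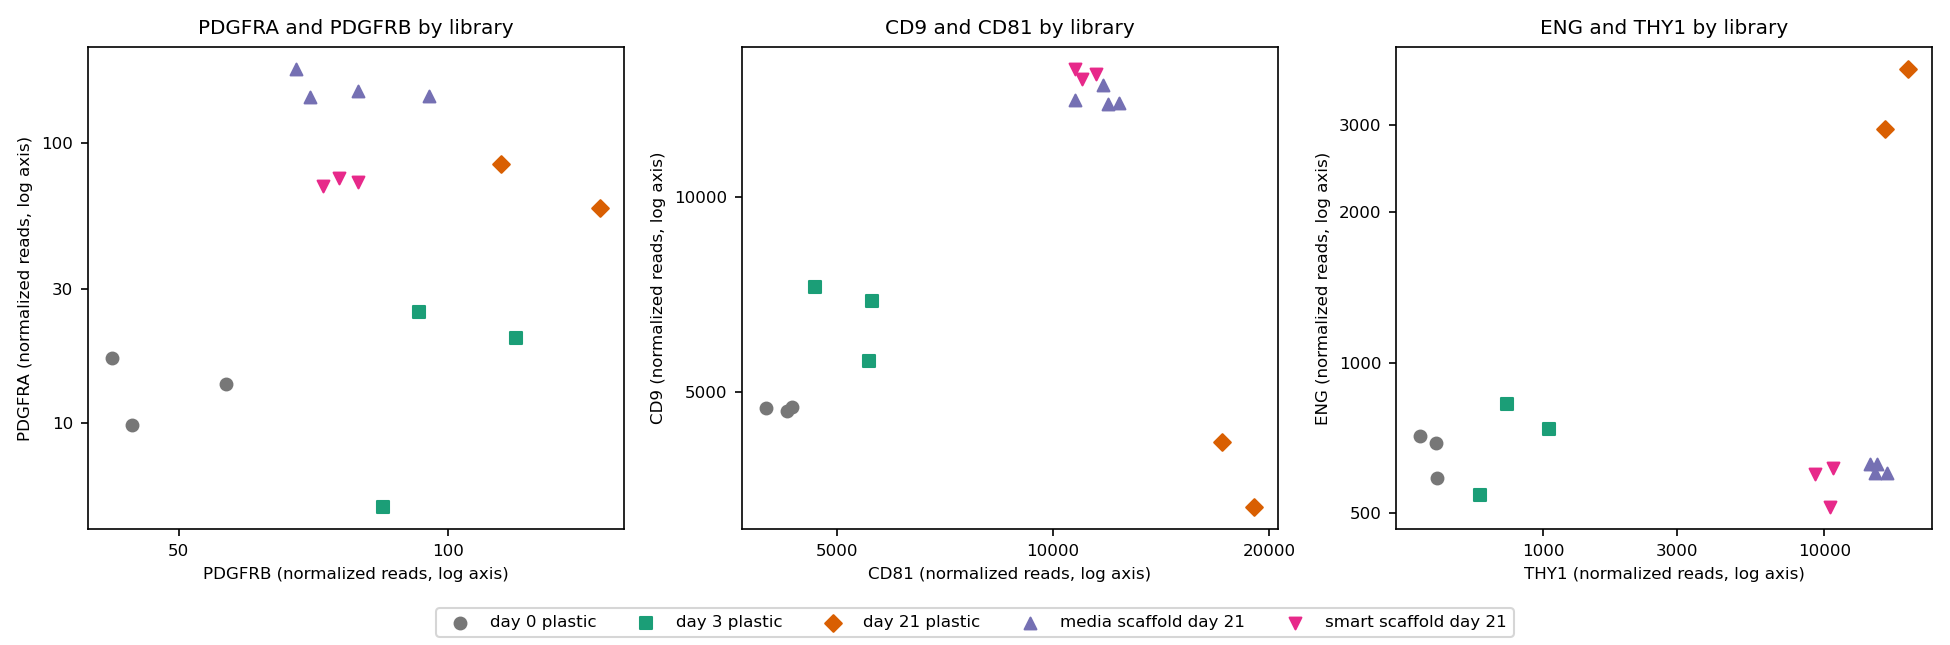
Normalized reads (log axes) of PDGFRA against PDGFRB, CD9 against CD81, and ENG against THY1, with 1 point for each of the 15 libraries and a symbol for each group. The plastic libraries of day 21 stand apart in the panels of CD9 and CD81 and of ENG and THY1: they have the highest CD81 (17174 and 19019.6) with the lowest CD9 (4187 and 3319), and the highest ENG (2935 and 3879.5), while scaffold libraries with THY1 of 9223 to 16749 have ENG of 514 to 626.

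Genes whose pattern was most like each marker over the same 15 libraries were found by Pearson r, among the genes tested that have a symbol. As for the panel, r was taken on log2(normalized reads + 1). For THY1 they were CYP27A1 (0.9970) and COX7A1 (0.9945), for CD81 EBF4 (0.9946) and LAMA4 (0.9938), and for CD9 QPCT (0.9899) and GGCX (0.9894). For ENG they were PDE4A (0.9875) and ROGDI (0.9841), for VCAM1 SCARA5 (0.9890) and SERPING1 (0.9826), and for CD44 CMC2 (0.9859) and TCP1 (0.9847). PDGFRA was nearest to CD302 (0.9702) and KLF15 (0.9605), ALCAM to PROM1 (0.9556), PDGFRB to FAM89B (0.9425) and GGA2 (0.9283), and NT5E to TRIM34 (0.9089) and GNPDA1 (0.9041).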

How the data were processed

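Total RNA came from a PureLink kit extraction, per the labels' protocols. The submitters' processing notes name cutadapt, STAR, HTSeq, DESeq and the bovine build ARS-UCD1.2. Their versions, the handling of molecular identifiers and the use of strand are not given in the sources used here. The deposited table holds a normalized signal per gene, made by the authors by dividing each library's counts by 1 factor. Dividing by the value of 1 read (0.395 to 3.44 normalized reads) gave whole numbers for 100% of values within 0.1. The names of 2 columns matched no sample and these columns were not used. Of the 12894 genes, 1498 have no symbol and 33 symbols belong to more than 1 gene.

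Values were analysed as log2(value + 1) with limma 3.58.1 (R 4.3.3, trend and robust), in 1 fit of 15 libraries, for the 10960 genes with a mean of at least 5; 1934 were left out. Tests were two-sided, adjusted by Benjamini-Hochberg within each comparison, and a call needed both an adjusted p under 0.05 and a log2 change of 1 or more. This scale understates changes of genes with few reads. Recovered reads were tested with edgeR 4.0.16 (quasi-likelihood) and DESeq2 1.42.0 as alternatives. With TMM, edgeR called 2248 genes higher and 2586 lower on plastic at day 21 against day 0, and 10 higher and 97 lower on the smart against the media scaffold. Companion genes named are up to 2 called members a list, direction and comparison with the largest change, and their levels are shown in other groups too. Some genes that the rules would name are not reported here. The marker genes and all lists were chosen with earlier results of these data known. List counts cover tested members alone, and a gene low elsewhere can pass the minimum through the group where it is high. Replicate numbers showed little sign of pairing the samples. Of 26 pairs with the same number, 2 had a correlation of deviations over 0.1 (range -0.074 to 0.157, median 0.0022). Of 63 pairs with different numbers, 0 did (highest 0.099, median 0.0010).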

Additional observations from a re-analysis of the deposited data

Results flagged for a closer look

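CD9 rose on the scaffolds and not on plastic. Against day 0 it was lower, by a difference that was not called (log2 change -0.34, limma, adjusted p = 0.0144), in both plastic libraries of day 21 and higher in every library of the 4 on the media scaffold and the 3 on the smart scaffold. Over the 27 alternatives that plastic difference ran from -0.66 to -0.17. On day 3, in contrast, every plastic library was above day 0 (log2 change 0.48, limma, adjusted p = 0.00176, not called). The difference between the scaffold and plastic changes was 1.93 for the media scaffold and 2.06 for the smart scaffold on the log2 scale, tested by the limma contrasts at day 21 (adjusted p = 2.65e-10 and 1.99e-10). Since the changes share the day 0 libraries, this is the same comparison as scaffold against plastic at day 21. CD9 was flagged because its plastic and scaffold libraries of day 21 lay on opposite sides of all day 0 libraries. The contrasts use those same libraries and so give no separate support.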

How the results depend on the processing

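Each of 80 marker values was recomputed under 27 alternatives (pseudocounts, filters, scalings, models, replicate block and leaving out each library). Of 2160 results, 2094 kept direction and call, 14 lost the call, 33 gained it and 19 turned direction. Of the 37 called values 33 kept their call throughout and 0 turned, and 207 of 235 companion calls were kept throughout. The causes were not tested. With 2 libraries, plastic at day 21 limits the comparisons it enters, and ALCAM and VCAM1 rest on few reads.

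The number of markers called on day 3, 1 as reported, was 2 with a pseudocount of 0.5, after rescaling, with array weights, in edgeR with RLE factors and in DESeq2. It was 0 with a pseudocount of 4, and 0 to 2 when libraries were left out. Between scaffolds, 1 as reported, it was 2 with only the 2 groups fitted, with array weights, in edgeR with TMM or RLE and in DESeq2, and 1 to 2 when libraries were left out. All genes called between scaffolds, 99 as reported, were 192 with array weights and 53 to 117 when libraries were left out.

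Values that turned were all uncalled. PDGFRA on day 3 was -0.0622 after quantile normalization. PDGFRA on the smart scaffold against plastic was -0.12 after quantile normalization, -0.00028 in edgeR with TMM, -0.0454 with RLE and -0.0391 in DESeq2. PDGFRB between scaffolds was 0.00823 after quantile normalization, and NT5E on the media scaffold against day 0 was -0.16 after rescaling. When single libraries were left out, day 3 values ran from -0.0646 to 0.239 for ENG, from -0.454 to 0.11 for ALCAM and from -0.33 to 0.719 for PDGFRA. PDGFRA on the smart scaffold against plastic then ran from -0.21 to 0.306, and between scaffolds ALCAM ran from -0.275 to 0.0666 and PDGFRB from -0.0956 to 0.0666.

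The replicate number, which showed little sign of pairing the samples, was also used as a block. With it the markers called were 1, 7, 6, 4, 4, 1, 6 and 6, and all genes called 1089, 4891, 3779, 3782, 4034, 78, 3512 and 3352, for day 3 and day 21 on plastic against day 0, day 21 against day 3, media and smart scaffold against plastic, smart against media, and media and smart scaffold against day 0. ALCAM on plastic (-0.97) and PDGFRA on the media scaffold against plastic (1.08, limma adjusted p = 0.0519) lost their calls, and PDGFRA on the smart scaffold against plastic was -0.0475.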
